A study of Mus musculus with 92 samples.

Results

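In mouse germline stem cells (GSC), 2483 of 36623 CTCF sites carried the cohesin subunit STAG3 and neither STAG1 nor STAG2. A CTCF site was an interval called for CTCF in all 4 GSC genotypes that have a CTCF list. A STAG site of a cell type was an interval called in at least 2 wild-type lists of that subunit, and 2 intervals overlapped when they shared at least 1 bp. The STAG3-alone sites were chosen by these peak calls: each overlapped a STAG3 site of GSC and no STAG1 or STAG2 site of GSC. They made up 6.78% of the CTCF sites. The count depends on single libraries: it was 829 without GSC STAG3 replicate 3, 848 without GSC STAG3 replicate 2 and 3777 without GSC STAG2 replicate 3. With 1 of these lists left out, both remaining lists of that subunit had to call a site. The other classes used for comparison were 3364 CTCF sites with STAG2 alone, 2727 with STAG2 and STAG3 but no STAG1, 7424 with all 3 subunits and 19486 with no STAG site. The GSC lists chose these classes, so GSC values are given below as a description, and tests were made only on lists of other cell types.

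Cohesin is a ring-shaped complex that extrudes chromatin loops and holds sister chromatids together. Each ring carries a STAG subunit, which helps to load it on DNA and contacts CTCF, the zinc-finger protein at which loop extrusion often stops. STAG1 and STAG2 serve dividing cells in most tissues, and STAG3 is best known as the subunit of meiotic cohesin. Where all 3 are made, as in cultured spermatogonial cells, a given CTCF site can be met by rings of different composition.

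Chromatin immunoprecipitation with sequencing (ChIP-seq) gave 30 peak lists, and the other libraries among the 92 samples were not analysed here. Wild-type ESC (embryonic stem cells), EpiLC (cells like those of the epiblast) and 2 stages of PGCLC (cells like primordial germ cells, labelled d2PGCLC and d4c7PGCLC) came from the BVSC line BDF1-2-1, which carries the reporters Blimp1-mVenus and Stella-ECFP. GSC came from the AAG line, which carries Acrosin-EGFP and beta-Actin-EGFP. Sorting had enriched PGCLC for Blimp1-mVenus and GSC for the AAG reporter. There were 2 lists of STAG1 per cell type, 2 or 3 of STAG2 (3 in both PGCLC stages and in GSC), and 3 of STAG3, all from GSC. CTCF had 1 pooled list in each of 4 mutant GSC genotypes: Stag3 KO, Stag2Stag3dKO (Stag1-only), Stag1Stag3dKO (Stag2-only) and Stag1Stag2dKO (Stag3-only). No CTCF list of wild-type GSC was used here. The STAG lists held 9641 to 84904 peaks, and the sequencing depth behind them is unknown. A place without a peak is one where none was called. Peak lists hold no expression, so the cell types could not be checked against marker genes. Cell type and cell line cannot be told apart for GSC. Peak names take 1 form in the 23 STAG1 and STAG2 lists, another in the 3 STAG3 lists and another in the 4 CTCF lists, so a separate calling run cannot be told apart from the antibody.

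Promoter sequences at STAG3-alone sites are shown first because they carry the CTCF core motif close to the measured CTCF summit, and because they stand for the 3 kinds of site described below. The motif searched was CC, any 3 bases, AG, any 2 bases and GGC, on both strands, in RefSeq promoter windows of GRCm38.p6 (250 bases before to 50 after a gene start). No other motif was searched. Of 32851 promoters, 8.61% held it. Of the 566 promoters that overlapped a STAG3-alone site, 164 (29.0%) held it, against 34.1% of the 2088 promoters at any CTCF site. It was held by 33.9% of 575 promoters at sites with STAG2 and STAG3, 28.0% of 328 promoters at CTCF sites without a STAG site and 45.1% of 525 at sites with all 3 subunits. The promoters at STAG3-alone sites had a median GC content of 63.3%, against 61.7% at any CTCF site and 52.7% for all promoters. At 132 STAG3-alone sites, 155 matches lay before the start. Their median distance from the mean of the 4 CTCF summits was 20.8 bp, and 83 lay within 30 bp. A match is a description of the letters, and binding to it was not measured. Each stretch below lies upstream of the named gene's start, is oriented so that the motif reads forward, and has the motif in capitals. The stretches were chosen after their values were seen, as the 3 of each kind with the highest STAG3 fold enrichment among those with a match within 30 bp of the CTCF summit. Fold enrichment is the authors' value for a peak, a linear ratio over the local background.

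The first 3 sites had no STAG1 or STAG2 peak in any list of any cell type. Snrpe encodes a core protein of the spliceosomal snRNPs (chr1:133610405-133610476, minus strand), Nsfl1c the p47 cofactor of the p97 ATPase (chr2:151494092-151494163, plus strand) and Entpd6 a nucleoside diphosphatase (chr2:150748915-150748986, minus strand).
Snrpe: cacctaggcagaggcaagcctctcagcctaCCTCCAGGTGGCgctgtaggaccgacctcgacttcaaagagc
Nsfl1c: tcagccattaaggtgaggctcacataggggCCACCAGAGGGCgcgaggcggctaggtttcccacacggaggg
Entpd6: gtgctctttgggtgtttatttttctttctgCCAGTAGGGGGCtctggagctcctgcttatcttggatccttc

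The next 3 were STAG2 sites in all 4 other cell types and STAG1 sites in none. Faap100 encodes a subunit of the Fanconi anaemia core complex (chr11:120378796-120378867, minus strand), Wwc1 the Hippo pathway protein KIBRA (chr11:35980589-35980660, minus strand) and C1ql3 a secreted C1q-like protein (chr2:13010865-13010933, plus strand).
Faap100: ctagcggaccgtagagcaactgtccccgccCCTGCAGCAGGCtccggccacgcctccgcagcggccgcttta
Wwc1: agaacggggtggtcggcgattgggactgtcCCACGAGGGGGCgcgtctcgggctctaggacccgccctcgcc
C1ql3: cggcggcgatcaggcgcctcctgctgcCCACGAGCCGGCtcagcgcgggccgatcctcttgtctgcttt

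The last 3 were sites of both STAG1 and STAG2 in all 4 other cell types. Foxa3 encodes a forkhead factor of endoderm (chr7:19023621-19023692, minus strand), Hsd3b7 an enzyme of bile acid synthesis (chr7:127800478-127800549, plus strand) and Dhx30 an RNA helicase (chr9:110101088-110101145, minus strand).
Foxa3: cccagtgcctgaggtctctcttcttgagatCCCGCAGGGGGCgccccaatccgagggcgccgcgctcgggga
Hsd3b7: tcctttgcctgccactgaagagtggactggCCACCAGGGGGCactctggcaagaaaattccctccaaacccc
Dhx30: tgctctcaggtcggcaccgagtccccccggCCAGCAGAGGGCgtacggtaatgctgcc

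Values at 1 promoter of each kind follow. At Snrpe the STAG3 fold enrichment was 17.3, 19.9 and 19.8 in GSC replicates 1, 2 and 3, and CTCF lay between 36.7 and 37.8 in the 4 genotypes. At Wwc1 it was 5.03 in STAG3 replicate 2 and 5.87 in replicate 3, with no peak in replicate 1, and CTCF lay between 4.06 and 6.58. At Hsd3b7 it was 5.72 and 8.80 in STAG3 replicates 2 and 3, and CTCF lay between 25.2 and 26.3. The Snrpe promoter thus had a strong peak in every STAG3 and CTCF list and none in 23 STAG1 and STAG2 lists. Outside GSC, the Hsd3b7 promoter had a STAG2 fold enrichment of 19.6 to 21.8 in ESC and 24.7 to 34.5 in EpiLC. It was 11.8 to 24.0 in d2PGCLC and 11.7 to 14.3 in d4c7PGCLC. All 3 promoters of the second kind, called a STAG1 site nowhere, had STAG1 peaks in single lists: Faap100 in 1 (6.57), Wwc1 in 1 (4.48) and C1ql3 in 1 list each of ESC, d2PGCLC and d4c7PGCLC (4.00, 4.78 and 4.87).

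In GSC the STAG3-alone class was held mostly by STAG3 peaks of 2 lists, weaker than those at sites with all 3 subunits. Of the 2483 sites, 734 had a STAG3 peak in all 3 lists, 1655 in 2 and 94 in 1 (there the site reached beyond the CTCF interval). STAG3 replicate 1, the shortest of these lists with 12832 peaks, covered 33.5% of them, replicate 2 95.3% and replicate 3 96.9%. Their median STAG3 fold enrichment was 5.43, 5.95 and 5.87 in replicates 1 to 3, against 7.35, 9.15 and 9.39 at CTCF sites with all 3 subunits. Over all peaks of these lists the median was 6.07, 5.49 and 5.48. Absence of STAG1 and STAG2 was often close to the limit of the definition: 1383 sites (55.7%) had no STAG1 or STAG2 peak in any GSC list, 1010 had a STAG2 peak in 1 list and 271 a STAG1 peak in 1 list. STAG2 replicate 3 covered 24.5% of them, replicate 1 15.7% and replicate 2 1.57%. Just inside the limit, sites with 1 STAG2 list had a median STAG2 fold enrichment of 6.19, 6.10 and 5.67 in replicates 1 to 3. Just outside it, sites with STAG3 and 2 STAG2 lists had 7.04, 6.33 and 6.86. For STAG3, sites with 2 STAG3 lists had a median of 5.49 in replicate 2 and 5.67 in replicate 3, against 4.80 and 4.69 at sites without a STAG site that had 1 STAG3 list. CTCF itself was not weak at these sites. Its median fold enrichment was 22.5 in Stag3 KO, 22.5 in Stag2Stag3dKO, 21.1 in Stag1Stag3dKO and 20.4 in Stag1Stag2dKO, against 22.8, 22.6, 20.5 and 19.2 at all CTCF sites. STAG3 summits lay a median of 55.3 to 59.3 bp from the mean CTCF summit, against at most 40.8 bp at sites with all 3 subunits. Other classes were closer to the STAG3-alone sites. The median was 47.5 to 52 bp with STAG2 and STAG3, and 51.5 to 53.3 bp at STAG3 peaks of sites without a STAG site.

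In the lists as deposited, most STAG3-alone sites of GSC were STAG2 sites in at least 1 other cell type. As STAG2 sites were called 66.3% of them in ESC (1645 sites, against 80.3% of all CTCF sites), 70.3% in EpiLC (1746, against 85.9%), 58.0% in d2PGCLC (1439, against 72.1%) and 49.3% in d4c7PGCLC (1225, against 66.7%). As STAG1 sites were called 41.2% in ESC (1024, against 62.6%), 12.6% in EpiLC (314, against 34.5%), 25.7% in d2PGCLC (638, against 45.9%) and 53.4% in d4c7PGCLC (1325, against 73.4%). At least 1 other cell type called a STAG2 site at 75.5% of them and a STAG1 site at 59.2%, against 87.9% and 76.4% of all CTCF sites. With every STAG list reduced to its 9641 peaks with the highest fold enrichment, the shares were 8.04% and 11.5% of a class of 1169 sites. As deposited, each of these 10 shares lay under that of all CTCF sites.

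Single lists showed how far replicates spread. STAG2 peaks covered 68.7% and 70.0% of the STAG3-alone sites in the 2 ESC lists, and 73.4% and 72.4% in EpiLC. In d2PGCLC the STAG2 lists covered 64.7%, 45.2% and 57.9%, and in d4c7PGCLC 61.1%, 41.9% and 44.6%. STAG1 peaks covered 59.2% and 43.1% in ESC, 15.9% and 29.1% in EpiLC, 28.2% and 39.9% in d2PGCLC, and 58.4% and 61.3% in d4c7PGCLC. The STAG2 lists of ESC and EpiLC differed by 1.29 and 0.967 points between replicates, while STAG1 lists of the same cell types differed by 16.1 and 13.2. In d4c7PGCLC the STAG1 and STAG2 lists overlapped in range.

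**Figure D1:**
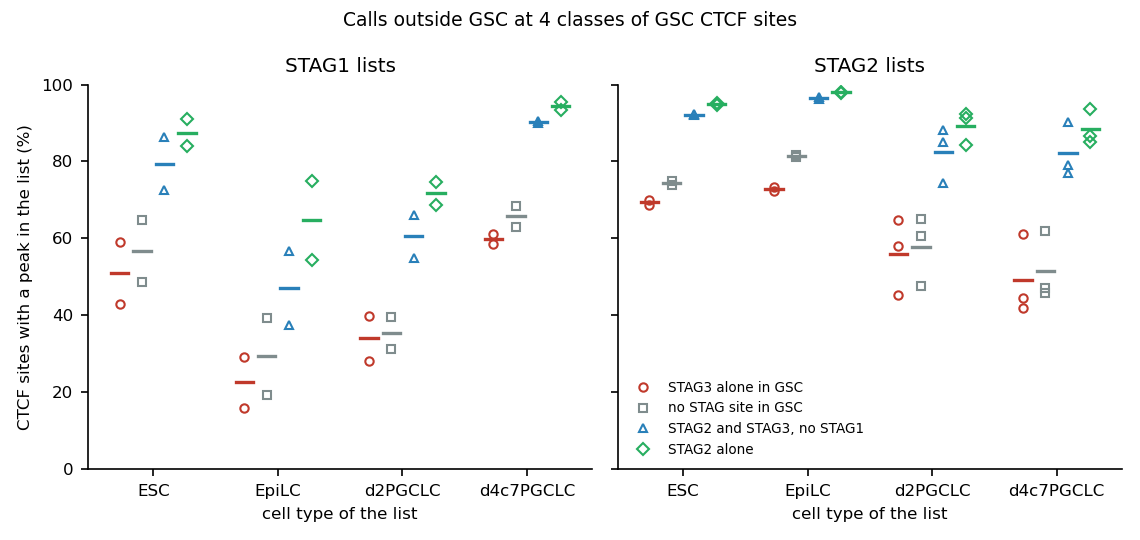
Percent of CTCF sites with a peak (vertical axis) in each STAG1 list (left) and STAG2 list (right) of 4 cell types other than GSC (horizontal axis). Open symbols are single lists, bars are their means, and colours are classes of CTCF site in GSC. The STAG3-alone sites (red) lie far below the classes with STAG2 in GSC and close to the sites without a STAG site, with the lowest STAG1 value at 15.9% in EpiLC.

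Averaged over the 4 cell types, STAG2 lists covered 19.98 points more of the STAG3-alone sites than STAG1 lists (two-sided exact permutation within cell type, p = 0.0242 over 3600 arrangements). By cell type, STAG2 minus STAG1 was 50.4 points in EpiLC, 21.9 in d2PGCLC, 18.2 in ESC and −10.6 in d4c7PGCLC. This gap was near that of other CTCF sites. Over the 4 cell types it averaged 19.4 points at CTCF sites without a STAG site and 15.9 at all CTCF sites, and at the latter it was 42.1 points in EpiLC and −10.6 in d4c7PGCLC. Whether the gap differs between the classes was not tested. Differences between cell types in the gap did not pass in any of 6 pairs (exact permutation, adjusted p from 0.1 to 0.867). With 2 or 3 lists a group, the smallest unadjusted p that a pair allows is 0.0167 to 0.0556, and EpiLC against d4c7PGCLC, 61.0 points apart, was at its smallest of 0.0333. STAG2 lists were longer than STAG1 lists in ESC, EpiLC and d2PGCLC. When every STAG list was reduced to its 9641 peaks with the highest fold enrichment, which also changes the class, the difference turned to −3.87 points (exact permutation p = 0.000278). The direction of the STAG2 to STAG1 difference therefore holds for the lists as deposited. The spread between cell types did not pass for STAG1 (exact permutation p = 0.0381, adjusted 0.0651) or STAG2 (exact permutation p = 0.0651, adjusted 0.0651).

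Sites recurred across the other cell types. STAG2 was called in all 4 at 1075 of the 2483 STAG3-alone sites (43.3%, against 63.3% of all CTCF sites). It was called in none at 609 (24.5%, against 12.1% of all CTCF sites and 18.5% of sites without a STAG site). The next commonest STAG2 patterns were ESC with EpiLC and d2PGCLC (236 sites, 9.50%, against 6.61% of all CTCF sites), ESC with EpiLC (186, 7.49%, against 6.66%) and EpiLC by itself (115, 4.63%, against 5.37%). STAG1 was called in all 4 at 216 (8.70%, against 30.2%). It was called in none at 1013 (40.8%, against 23.6% of all CTCF sites and 35.9% of sites without a STAG site). Its commonest patterns were ESC with d4c7PGCLC (340 sites, 13.7%, against 13.3%), d4c7PGCLC by itself (327, 13.2%, against 11.1%) and all but EpiLC (289, 11.6%, against 12.9%). Both subunits were called in all 4 cell types at 205 sites (8.26%, against 30%). STAG2 in some cell type and STAG1 in none held at 430 sites (17.3%, against 12.1% of all CTCF sites), and the reverse at 26 (1.05%, against 0.644%).

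**Figure D2:**
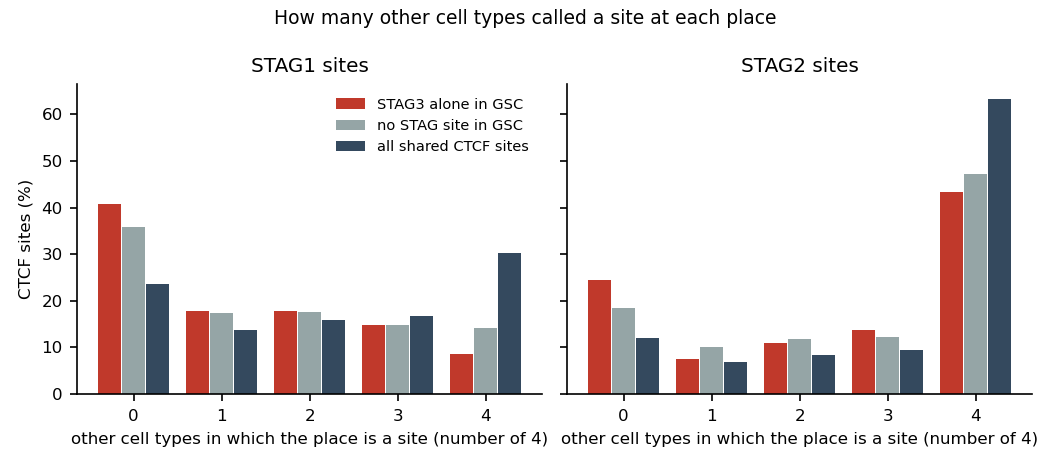
Percent of CTCF sites (vertical axis) by the number of the 4 other cell types in which the place is a STAG1 site (left) or a STAG2 site (right). Red bars are STAG3-alone sites, grey bars CTCF sites without a STAG site in GSC and dark bars all CTCF sites. STAG2 calls are split between all 4 cell types (43.3%) and none (24.5%), whereas STAG1 calls are most often in none (40.8%).

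STAG3-alone sites were called outside GSC far less often than CTCF sites that had STAG2 in GSC. In the 10 STAG2 lists they were covered 31.9 points less on average than STAG2-alone sites and 27.1 points less than sites with STAG2 and STAG3 (two-sided exact sign-flip permutation, adjusted p = 0.00391 for both, lower in 10 of 10 lists). In the 8 STAG1 lists the differences were −37.7 and −27.4 points (exact sign-flip permutation, adjusted p = 0.00938 for both, lower in 8 of 8 lists). These sign-flip tests take lists as units, and with cell types as units none could pass. The classes differ by definition in STAG2 calls in GSC. A general difference in how readily STAG2 is called at a site therefore cannot be told apart from its class. Against CTCF sites without any STAG site in GSC the difference was small. It was −3.93 points for STAG2 (exact sign-flip permutation, adjusted p = 0.00391, lower in 10 of 10 lists) and −4.94 points for STAG1 (exact sign-flip permutation, adjusted p = 0.0156, lower in 7 of 8 lists). This small difference depended on the libraries and definitions used. With GSC STAG3 replicate 2 left out it was −12.9 points for STAG2 and −10.7 for STAG1. Without GSC STAG3 replicate 3 it was −13.0 and −10.9. With STAG3 required in all 3 lists it was −12.5 and −11.1. With no STAG1 or STAG2 peak allowed in any GSC list it was −14.2 and −11.6. With GSC STAG2 replicate 1 left out when the classes were made, it turned to 2.13 points for STAG2 and 0.131 for STAG1. With GSC STAG2 replicate 3 left out it turned to 2.56 and 0.565 points. Where they were called, the peaks at STAG3-alone sites had a lower median fold enrichment than those at sites without a STAG site in 8 of 8 STAG1 lists and 10 of 10 STAG2 lists. In ESC STAG2 replicate 1, for example, their median peak stood at percentile 57.7 of the list, against percentile 66.4 for sites without STAG and 89.2 for sites with all 3 subunits.

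Gene ends were common among the STAG3-alone sites. A site counted as lying at a gene end when it came within 2500 bp of the start or stop coordinate of a protein-coding gene. That held for 1092 of them (44.0%), against 19.2% of all CTCF sites, 36.7% of sites with STAG2 and STAG3, 15.7% of STAG2-alone sites and 14.5% of sites without a STAG site. RefSeq promoters overlapped 19.4% of the 2420 STAG3-alone sites on chromosomes other than 18, against 5.02% of all CTCF sites there. On the same chromosomes the share was 17.9% at sites with STAG2 and STAG3, near that of the class, and 1.52% at sites without a STAG site. CTCF was weaker at the gene-end sites. Its median over the 4 genotypes, as a geometric mean, was 15.1 at gene ends and 26.4 away from them. The STAG3 summit lay farther from the CTCF summit at gene ends, by a median of 77.5, 97.1 and 94.5 bp in STAG3 replicates 1 to 3, against 43.3, 46.5 and 44.3 bp away from them.

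The gene-end sites were called for STAG2 in other cell types more often than the STAG3-alone sites away from gene ends. As STAG2 sites were called 75.2% of them in EpiLC, 74.6% in ESC, 73.1% in d2PGCLC and 60.2% in d4c7PGCLC. Of the 1391 STAG3-alone sites away from gene ends it was 66.5%, 59.7%, 46.1% and 40.8% in the same order. Over the 10 STAG2 lists the mean coverage was 70.0% at gene ends and 52.1% away, a difference of 17.9 ± 6.34 points (SD over lists; exact sign-flip permutation, adjusted p = 0.00521 over 8 tests, higher in 10 of 10 lists). At CTCF sites without a STAG site the same lists covered 67.1% at gene ends and 63.4% away. The gene-end difference was 14.2 points larger at STAG3-alone sites than at those (exact sign-flip permutation, adjusted p = 0.00521, larger in 10 of 10 lists). Sites with no STAG1 or STAG2 peak in any list count as uncovered throughout. Gene ends held 29.3% of the 468 such STAG3-alone sites, against 44.0% of the class. Among sites without a STAG site they held 11.6% of the 2313 such sites, against 14.5%. The part of these sites in the difference was not tested. Away from gene ends STAG3-alone sites were covered 11.3 points less than sites without STAG (exact sign-flip permutation, adjusted p = 0.00521, lower in 10 of 10 lists), and at gene ends 2.91 points more, which did not pass (exact sign-flip permutation, adjusted p = 0.148, higher in 7 of 10 lists). For STAG1 the gene-end difference among STAG3-alone sites was 0.128 points (exact sign-flip permutation, adjusted p = 0.984). Its range over the 8 lists was −11.4 to 19.1, both d2PGCLC lists being higher at gene ends and both EpiLC lists lower. These gene-end tests were chosen after the values were seen. They too take lists as units, and with cell types as units none could pass. Away from gene ends the difference between STAG2 and STAG1 lists was 12.6 points and did not pass (exact permutation p = 0.121).

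**Figure D3:**
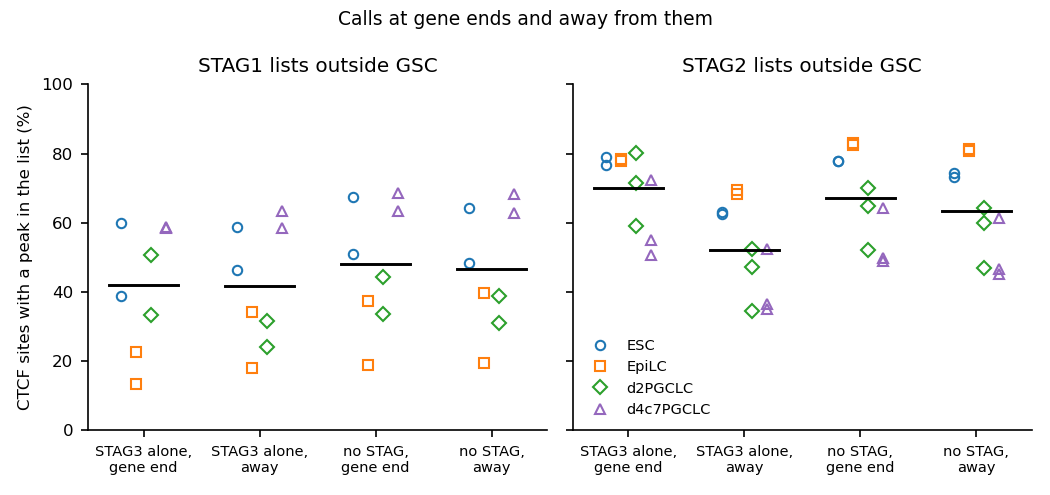
Percent of CTCF sites with a peak (vertical axis) in each STAG1 list (left) and STAG2 list (right) outside GSC, for STAG3-alone sites and sites without a STAG site in GSC, at gene ends and away from them. Symbols are single lists, with a shape for each cell type, and bars are means over lists. In the STAG2 lists the STAG3-alone sites average 70.0% at gene ends and 52.1% away, while sites without STAG average 67.1% and 63.4%.

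The extreme of this pattern was a set of 103 STAG3-alone sites called for STAG2 in all 4 other cell types and for STAG1 in none. Gene ends held 82.5% of them, and RefSeq promoters overlapped 45.3% of the 95 on chromosomes other than 18. Their median CTCF fold enrichment was 9.17, the lowest of the subsets examined, and the STAG3 summit lay 91.3, 133 and 131 bp from the CTCF summit in replicates 1 to 3. The 205 sites called for both subunits in all 4 cell types differed in each of these measures. Gene ends held 37.1% of those, and their median CTCF fold enrichment was 23.5. Sites of other classes with the same calls were not examined for these measures.

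A further 468 STAG3-alone sites had no peak in any of the 23 STAG1 and STAG2 lists, GSC included. That is 18.8% of the class, against 7.59% of all CTCF sites and 11.9% of those without a STAG site. The share of all CTCF sites is lowered by definition, because sites with STAG1 or STAG2 in GSC always have such a peak. They were not weak sites. Their median CTCF fold enrichment was 29.3 in Stag3 KO, 29.2 in Stag2Stag3dKO, 28.4 in Stag1Stag3dKO and 27.3 in Stag1Stag2dKO, higher than over the whole class in each genotype. At the 2313 sites that had no peak in any list and no STAG site in GSC it was 10.5 to 11.8. STAG3 replicate 1 called 61.8% of the 468, against 33.5% of the class. Of the 734 STAG3-alone sites called in all 3 STAG3 lists, 272 (37.1%, against 18.8% of the class) had no STAG1 or STAG2 peak anywhere. The share over all CTCF sites called in all 3 STAG3 lists is not given here. The 468 sites lay outside genes and gene ends more often, in 53.8% of cases against 31.3% of the class.

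STAG2 calls outside GSC were fewest at the STAG3-alone sites with the strongest CTCF. In the quintile of CTCF sites with the highest CTCF fold enrichment (at least 31.6), 521 were STAG3-alone. Of these, STAG2 sites were called at 54.5% in EpiLC, 48.9% in ESC, 36.7% in d2PGCLC and 31.9% in d4c7PGCLC. Of the 604 sites of that quintile without a STAG site it was 78.6%, 71.9%, 54.3% and 49.0% in that order. In the middle quintile the STAG3-alone shares were 77.9%, 77.2%, 62.6% and 56.8%, against 81.4%, 73.8%, 61.3% and 53.9%. Of the 521 sites, 196 had no STAG1 or STAG2 peak in any list, against 50 of 417 in the middle quintile. Such sites cannot be STAG2 sites, so they lower the shares of the strongest quintile. In the strongest quintile 263 of 7325 sites had no STAG1 or STAG2 peak in any list, and 214 of these (81.4%) still had a STAG3 peak in at least 1 GSC list, against 91.8% of the sites with such a peak. Of the 263, 196 (74.5%) were STAG3-alone sites. By definition, any of the 263 that overlapped a STAG3 site of GSC is in that class. In the weakest quintile 10.4% of the sites without a STAG1 or STAG2 peak had a STAG3 peak, against 17.4% of those with one.

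**Figure D4:**
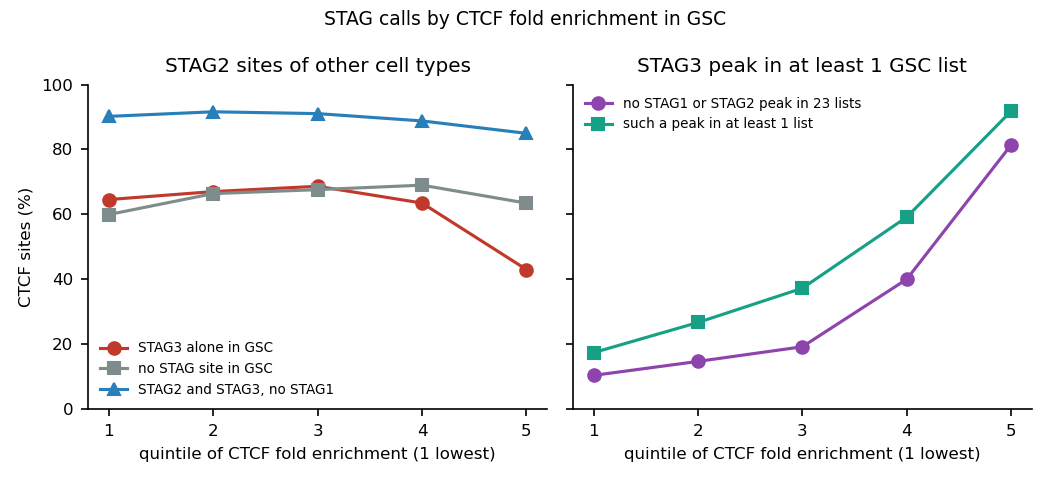
Left, percent of CTCF sites that are STAG2 sites, averaged over the 4 other cell types, by quintile of CTCF fold enrichment, for STAG3-alone sites (red), sites without a STAG site (grey) and sites with STAG2 and STAG3 (blue). Right, percent of CTCF sites with a STAG3 peak in at least 1 GSC list, for sites with no STAG1 or STAG2 peak in 23 lists (purple) and sites with one (green). The red line drops to 43.0% in the strongest quintile, where the purple line reaches 81.4%.

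The STAG3-alone sites with the highest STAG3 fold enrichment were nearly all of this kind. Of the 10 highest that were called in all 3 STAG3 lists, 9 had no STAG1 or STAG2 peak in any list, and 7 lay outside genes and gene ends. The nearest protein-coding gene gives each site its name, with no test of whether the site acts on it. The highest lay 9291 bp from Kremen1, which encodes a receptor for Wnt antagonists of the Dickkopf family (chr11:5181776-5182260). Its STAG3 fold enrichment was 18.2, 25.9 and 31.5 in replicates 1 to 3, and CTCF lay between 36.4 and 37.7. The site at an end of Kcnk18, a potassium channel gene (chr19:59239300-59239890), had 15.7, 22.0 and 26.8, with CTCF between 37.7 and 38.6. Sites near Tmem179 (14.1, 23.6 and 22.1), Naif1 (13.1, 20.4 and 24.1), Blcap (13.1, 23.1 and 20.1) and Apol7a, an apolipoprotein L gene (13.7, 19.2 and 23.1), and a site in Tcp11l1 (15.0, 19.9 and 20.5) were alike in the 3 lists. The Snrpe promoter, shown above, was also among the 10.

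Replicates disagreed at 2 of the 10. Near Creb3l1, which encodes a membrane-bound transcription factor of the endoplasmic reticulum (chr2:92093562-92093771), STAG3 was 30.3, 33.3 and 8.66, while CTCF was only 6.25 to 7.33. Near Pla2r1, a phospholipase A2 receptor gene (chr2:60402633-60402966), STAG3 was 7.99, 17.4 and 56.3, and CTCF ranged from 13.4 in Stag1Stag2dKO to 28.9 in Stag1Stag3dKO. Pla2r1 was also the exception among the 10 in having STAG1 peaks. They were called in both EpiLC lists (7.24 and 23.8), in 1 list each of ESC, d2PGCLC and d4c7PGCLC, and no STAG2 list had one.

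Part of the sites without any STAG1 or STAG2 peak lay in stretches where those lists were silent altogether. For 104 STAG3-alone sites (4.19%, all among the 468) no peak of the 23 lists lay within 100 kb. The same held for 1.52% of sites without a STAG site and for none of the sites with STAG2 in GSC, for which the definition allows no other value. A regular array stood out on chromosome 6. Between 47651028 and 47778764, around the small repeat RNA gene Rn4.5s (chr6:47654921-47655094), all 18 CTCF sites were STAG3-alone, in 2 runs of 9. Of the 17 gaps between neighbours, 14 measured 4 to 5 kb, with a median of 4338 bp. CTCF fold enrichment there ran from 10.6 to 22.8 (median 12.8) and STAG3 from 2.88 to 7.77 (median 5.23), and no STAG1 or STAG2 list had a peak at any of them. Chromosome 14 held 62 of the 468 sites (13.2%, against 4.08% of all CTCF sites), 41 of them in its first 9 megabases. On chromosome Y all 7 STAG3-alone sites were of this kind. How reads that match several places were treated in each set of lists is not given in the sources used here, and its part in these calls was not tested. With the 104 sites and their like left out of every class, the share of STAG3-alone sites called for STAG2 elsewhere was 78.8% and for STAG1 61.8%. Chromosome X held 22 STAG3-alone sites (0.886%, against 2.63% of all CTCF sites). The share was similarly low in the other classes with STAG3, 0.770% with STAG2 and STAG3 and 0.862% with all 3 subunits.

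**Figure D5:**
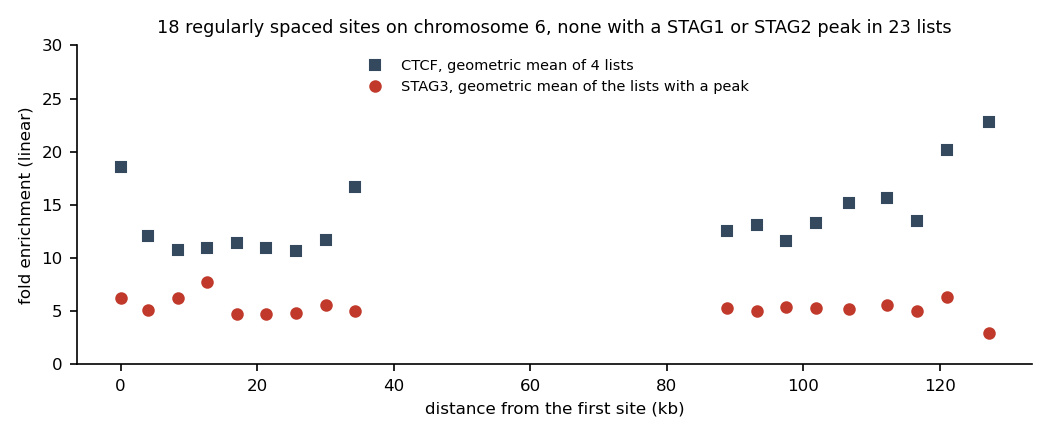
Fold enrichment (vertical axis, linear, geometric mean over lists) of CTCF (dark squares) and STAG3 (red circles) at the 18 STAG3-alone sites of the chromosome 6 array, by distance from the first in kb. The sites form 2 groups of 9 with a near constant spacing, CTCF stays between 10.6 and 22.8, and STAG3 between 2.88 and 7.77.

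At the other end stood the 205 STAG3-alone sites called for STAG1 and STAG2 in all 4 other cell types. The 5 with the highest CTCF fold enrichment lay in Pi4ka, a phosphatidylinositol kinase gene (chr16:17292785-17293254), in Ltbp1, which encodes a latent TGF-beta binding protein (chr17:75017382-75017818), in Exoc1, an exocyst subunit gene (chr5:76565280-76565763), in Sema6a, a semaphorin gene, and 113601 bp from Foxf1, a forkhead gene of mesoderm. Their CTCF values, which chose them, ran from 35.3 to 38.1, and their STAG3 values from 4.49 to 8.22. At Ltbp1 the STAG3 fold enrichment was 6.39, 12.4 and 7.04, and 1 GSC STAG2 list had a peak. STAG2 there was 22.97 and 22.12 in ESC, 25.2 and 15.6 in EpiLC, 6.07, 7.20 and 9.59 in d2PGCLC, and 11.2, 6.88 and 5.51 in d4c7PGCLC. STAG1 was 14.4 and 10.0 in ESC, 5.62 and 5.72 in EpiLC, 5.75 and 4.78 in d2PGCLC, and 12.8 and 13.6 in d4c7PGCLC. STAG2 at Ltbp1 was highest in ESC and EpiLC. At Pi4ka no GSC STAG2 list had a peak. STAG3 there was 5.26 in replicate 2 and 5.08 in replicate 3, and ESC STAG1 was 8.16 and 10.2.

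Among the 441 genes of the lists examined, 29 (6.58%) had a STAG3-alone site at an end, near the 6.06% of all 21887 protein-coding genes (1326). Of the genes with any CTCF site at an end, it was 29 of 195 list genes (14.9%) and 1326 of all 6913 (19.2%). The list with the most such genes was that of ribosomal proteins, with 13 of 83 (15.7%) and 45 genes with a CTCF site at an end. Rps19 and Rpl37 were among the 13. Of the 13 sites, 7 were STAG2 sites in all 4 other cell types and 7 were STAG1 sites in none. Among all STAG3-alone sites at gene ends, 577 of 1092 were STAG2 sites in all 4. STAG1 was called in none at 40.8% of the whole class. At Rps19 the STAG3 fold enrichment was 11.7 and 7.82 in replicates 2 and 3, with no peak in replicate 1. Genes of cohesin and CTCF had 4 of 24, of which 8 had a CTCF site at an end: Ctcf itself, Pds5a, a regulator of cohesin release, Esco1, which acetylates cohesin, and Espl1, the protease separase. The Ctcf site (chr8:105636547-105637059) had STAG3 values of 7.78 and 9.78 in replicates 2 and 3 and was a site of both STAG1 and STAG2 in all 4 other cell types. The Espl1 site had STAG3 in all 3 lists (7.35, 5.26 and 6.84) and was a site of neither subunit elsewhere. At all 4 genes the site also had a STAG2 peak in 1 GSC list, as did 1010 sites of the class (40.7%). Stag1, Stag2, Stag3 and Rad21 had none, and Stag1, Stag3 and Rad21 had no CTCF site of any class at an end.

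The 4 lists of germ cell genes together had 4 of 76 (5.26%), near the share of all genes. Germ cell specifiers had 2 of 12: Sox17, an endoderm and germline transcription factor, and Itgb3, an integrin used to mark germ cell-like cells. The Sox17 site had STAG3 values of 7.03, 6.41 and 10.8 and was a site of both subunits in all 4 other cell types. Spermatogonial genes had 1 of 24, Gfra1, which encodes the GDNF co-receptor of spermatogonial stem cells, and its site had STAG3 values of 5.03 and 4.11 in replicates 2 and 3. Other germline genes had 1 of 15, Dazl, an RNA-binding regulator of germ cell development, with 4.80, 6.63 and 6.65. Each of the sites at Sox17, Itgb3, Gfra1 and Dazl also had a STAG2 peak in 1 GSC list. Meiotic genes had 0 of 28, naive pluripotency genes 0 of 16, core pluripotency genes 0 of 10 and formative epiblast genes 0 of 14. Clustered protocadherin genes had 0 of 57 although 51 had a CTCF site at an end, and Hox genes 1 of 39 (Hoxb3) with 21 so placed. The lists of fibroblast feeder (0 of 12), Sertoli (0 of 10) and neural genes (0 of 12) had none, and mesendoderm genes had 3 of 10: Sox17, Mesp1 and Eomes. Imprinted genes had 2 of 25 (Zim1 and Slc22a3) and histone genes 3 of 67. The histone site with the highest STAG3 lay at H2ax, the variant marked at DNA breaks, with 4.73, 11.4 and 13.9 in replicates 1 to 3, and was a site of neither other subunit in any cell type. Over the 29 sites at list genes, 16 were STAG2 sites in all 4 other cell types and 3 were STAG1 sites in all 4. These counts are near those of STAG3-alone sites in general. STAG2 was called in all 4 at 577 of the 1092 at gene ends, and STAG1 in all 4 at 8.70% of the class.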

How the data were processed

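ChIP-seq peak lists were used as deposited. The submitters' processing notes name MACS2, deepTools (3.5.0), bedtools (2.29.2), SAMtools (1.7), Bowtie2 (2.3.4.1), cutadapt (1.9.1) and Trim Galore (0.4.1), and the builds GRCm38.p3 and mm10. The sources used here do not give the control libraries, the options or what each tool did. The authors' lists give fold enrichment at the summit, a linear ratio, and −log10 of a q-value, at least 2 in every deposited list. Per the labels and the peak names, each STAG list is of 1 library and each CTCF list of pooled replicates.

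Lists were merged and overlapped by at least 1 bp with Python 3.11.15, numpy 2.4.6 and pandas 2.3.3. Fold enrichment at a site is that of its highest overlapping peak, and means over lists are geometric. The list was the unit of every test. Exact permutations exchanged STAG1 and STAG2 labels within a cell type, cell type labels between lists (one-sided), or the signs of differences within lists (two-sided), with Benjamini-Hochberg adjustment over 6 class comparisons, 8 gene-end tests, 6 pairs of cell types or 2 subunits. The smallest p of a sign-flip test was 0.00781 with 8 lists and 0.00195 with 10. Lists of the same cell type counted there as separate units. With the 4 cell types as units the smallest p would be 0.125, so no sign-flip test could pass. The tests were checked on simulated data. The labels do not say whether replicates were separate cultures, so p-values measure the spread between these lists, which may be technical.

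The sites, gene lists and tests were chosen with earlier results of these data known. Named sites were the 10 with the highest STAG3 geometric mean among those called in all 3 lists, the 5 with the highest CTCF among sites of both other subunits in all 4 cell types, the 5 with the highest STAG3 among those with no STAG1 or STAG2 peak, list genes with a STAG3-alone site at an end, and Stag1, Stag2, Stag3, Rad21 and Ctcf. Genes and promoter sequences came from RefSeq tables of GRCm38.p6. Chromosome 18 promoters were not analysed here.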

Additional observations from a re-analysis of the deposited data

How the results depend on the processing

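Of the compared values, 269 recomputed with a test kept their direction and side of the 0.05 threshold over 41 settings, 3 lost the call, 2 gained it and 6 changed sign. With lists of equal length the class held 1169 sites, of which STAG1 was called elsewhere at 11.5% and STAG2 at 8.04%, gene ends held 49.0%, and STAG2 minus STAG1 was −3.87 points. These lists are shorter by construction, and 523 of the 2483 sites remained. With STAG3 in all 3 lists the class held 827 sites (49.5% called for STAG1 and 62.6% for STAG2 elsewhere, 51.0% at gene ends). With no STAG1 or STAG2 peak in any GSC list it held 1383 (45.3% and 60.8%). Chosen after seeing the data, sites far from any STAG1 or STAG2 peak left out gave 61.8% and 78.8%. The 1092 gene-end sites gave 83.4% for STAG2, and STAG3-alone sites minus sites without STAG was then −6.12 points for STAG1 (exact adjusted p = 0.0656) and 2.91 for STAG2. The 1391 sites away from gene ends gave 69.2% for STAG2, with STAG2 minus STAG1 at 12.6 points. A gene-end window of 1000 bp held 35.8% of the class.

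Leaving out 1 list at a time moved the class from 829 to 3777 sites: 848 without GSC STAG3 replicate 2, 829 without replicate 3, 3724 without GSC STAG2 replicate 1 and 3777 without replicate 3. Leaving out a STAG list also changed the rule for a STAG site. Where 2 lists of a subunit remained, both had to call it, and where 1 remained, that list alone sufficed. The effect of the library and that of the rule cannot be told apart here. The share at gene ends ran from 42.7% to 49.2%, STAG1 elsewhere from 49.8% to 68.0% and STAG2 elsewhere from 62.5% to 82.4%. STAG2 minus STAG1 ran from 16.4 to 22.0 points. Sites with STAG3 alone minus sites without STAG ran from −10.9 to 0.565 points for STAG1 and from −13.0 to 2.56 for STAG2. It was above 0 without GSC STAG2 replicate 1 (0.131 and 2.13, exact adjusted p = 0.906 and 0.0609) and without GSC STAG2 replicate 3 (0.565 and 2.56, exact adjusted p = 0.594 and 0.0352). The cause was not tested. The sum of squares between cell types ran from 1006 to 2019 for STAG1, passing without GSC STAG1 replicate 1 (1614, exact adjusted p = 0.0381), and from 456 to 1119 for STAG2, passing without d4c7PGCLC STAG2 replicate 1 (1119, exact adjusted p = 0.0381).

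With the replicate block, STAG1 and STAG2 lists of the same number paired and replicate 3 left out, STAG2 minus STAG1 was 20.3 points (exact sign-flip permutation p = 0.0703, STAG2 higher in 7 of 8 pairs). In 0 of 4 cell types did replicate 1 minus replicate 2 have the same sign for both subunits, so the numbers are not taken to pair the lists. Depth is unknown, so a missing call cannot be told from a shallow library.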
